A study of Arabidopsis thaliana with 10 samples.

Results

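Messenger RNA of whole Arabidopsis thaliana seedlings was compared between the line labelled ubp12ubp13 and cry2-1, both in the Columbia (Col-0) ecotype. The comparison used 4 of the 10 libraries of the series, chosen by their titles, with 2 biological replicates of ubp12ubp13 and 2 of cry2-1 and no wild-type library. The label ubp12ubp13 stands for mutations in UBP12 and UBP13, which encode deubiquitinases, and cry2-1 for a mutation in CRY2, which encodes a blue-light receptor. The other genotypes had 2 libraries each, namely CRY2oe and UBP13oe, which overexpress the gene in their name, and wild type (WT). All seedlings were 4 days old and had been kept under blue light, without dark periods, at 1 µmol per m2 and s. The labels give no allele for ubp12ubp13, no promoter for the overexpressors, and no number of seedlings per library.

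Cryptochrome 2 is a blue-light receptor that is most active in weak blue light. The excited receptor binds and inhibits the COP1/SPA ubiquitin ligase, which otherwise removes light-promoting transcription factors such as HY5, and it also binds phytochrome-interacting factors, which drive elongation growth. Excited CRY2 is itself ubiquitinated and degraded. Deubiquitinases such as UBP12 and UBP13 take ubiquitin off proteins, and the series' title states that this pair destabilizes CRY2 and regulates growth. The comparison therefore sets seedlings labelled as lacking these deubiquitinases against seedlings lacking the receptor. RNA was measured and protein was not.

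Levels are the deposited FPKM, which scale fragment counts by transcript length and by the mapped fragments of the library. Differences are on the log2(FPKM + 1) scale, which understates the change of low genes. Of 33557 genes, 19957 had 1 FPKM or more in at least 2 of the 10 libraries, and 19956 of them could be tested. Depth, estimated from the steps between low values, was 25.4M and 15.9M fragments (M, 1e6) in the ubp12ubp13 libraries and 27.1M and 26.1M in cry2-1. At those depths 3 fragments on 1 kb of transcript, the level that a count of 0 allows by counting error alone, equalled 0.118 and 0.189 FPKM in ubp12ubp13 and 0.111 and 0.115 FPKM in cry2-1. The replicates correlated across genes at 0.983 in ubp12ubp13 and at 0.9875 in cry2-1, and libraries of the 2 genotypes at 0.9295 to 0.9339. Seedlings are mixtures of organs, so fewer cells of a type and less RNA per cell cannot be told apart in any of the values.

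CRY2 RNA was present in ubp12ubp13 and nearly absent from cry2-1. CRY2 (AT1G04400, TAIR10 chromosome 1, 1185550 to 1188517) had 84.0 and 87.7 FPKM in the ubp12ubp13 libraries, against 0 and 0.0187 FPKM in cry2-1 (limma adjusted p = 8.69e-11). The cry2-1 values lie under the level of 3 fragments, so no fold change is given. CRY2oe held 3923 and 3808 FPKM, and the WT mean was 115 FPKM. CRY1 (AT4G08920), the other nuclear cryptochrome, had 83.9 and 83.7 FPKM in ubp12ubp13 against 79.8 and 81.4 FPKM in cry2-1. Its groups did not overlap, but the difference of 0.06 ± 0.05 (SE) did not pass the test (limma adjusted p = 0.349). CRY1 was higher in ubp12ubp13 than in CRY2oe, which had 76.4 and 75.4 FPKM (0.14 ± 0.05 (SE), limma adjusted p = 0.0384).

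The RNA of the deubiquitinase genes did not check the ubp12ubp13 label. UBP13 (AT3G11910, TAIR10 chromosome 3, 3761388 to 3770563) had 24.2 and 23.58 FPKM in ubp12ubp13, against 36.9 and 36.0 FPKM in cry2-1. It was lower in both ubp12ubp13 libraries by a log2 change of -0.59 ± 0.05 (SE, limma adjusted p = 1.69e-05), and it was not lost. UBP12 (AT5G06600, TAIR10 chromosome 5, 2019107 to 2027945) had 397 FPKM in ubp12ubp13 replicate 1 and a failed estimate in replicate 2, against 48.2 and 46.5 FPKM in cry2-1. With the failed estimate left out, the UBP12 difference was 3.04 ± 0.06 (SE, limma adjusted p = 8.66e-08) and rested on 1 library. With it taken as 0, the value was -1.28 and the call was lost. A value per gene leaves unseen where in the gene its fragments lay, so the libraries are called by their label.

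**Figure D1:**
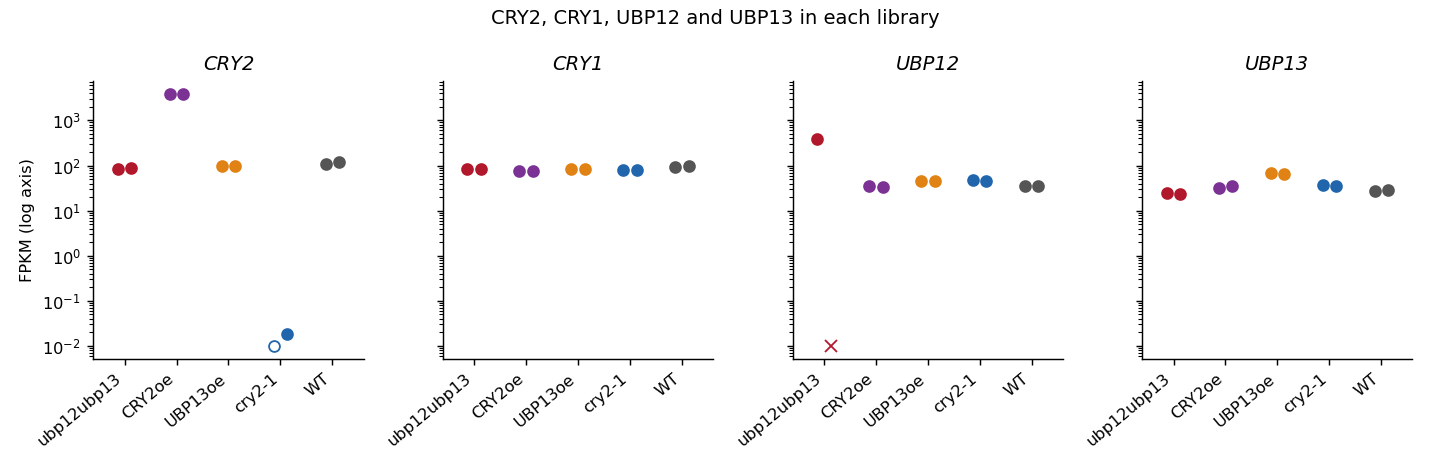
FPKM (log axis) of CRY2, CRY1, UBP12 and UBP13 in each library, with 2 points per genotype. An open circle stands for a value under 0.01 and a cross for a failed estimate, both drawn at 0.01. CRY2 lay at 84.0 and 87.7 FPKM in ubp12ubp13 and near 0 in cry2-1, CRY1 lay between 75.4 FPKM in CRY2oe and 99.4 FPKM in WT, and UBP12 in ubp12ubp13 replicate 1 stood above every other library.

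Some gene models beside CRY2 also differed. The neighbouring c-NAD-MDH1 (AT1G04410), which encodes a cytosolic malate dehydrogenase, had 364 and 358 FPKM in ubp12ubp13 and was listed at 0 in both cry2-1 libraries. AT1G04420 had 57.3 and 59.2 FPKM in ubp12ubp13 and was also listed at 0 in both cry2-1 libraries. CRY2oe, too, had 0.114 and 0.0564 FPKM of c-NAD-MDH1 and was listed at 0 for AT1G04420, against WT means of 439 and 31.1 FPKM. Thus the comparison holds a difference in at least these neighbours beside that in CRY2, and their part in any other result was not tested. Of the 10 gene models around CRY2, 8 were tested, 3 rose and 2 fell, beside 24.6% of all genes called higher and 32.4% lower. AT1G04350 was the other riser, with 62.8 and 64.0 FPKM in ubp12ubp13 against 27.7 and 27.1 FPKM in cry2-1. CKL13 fell, with 33.4 and 34.6 FPKM against 52.1 and 48.4 FPKM. The fall of AT1G04430 was small (-0.19 ± 0.04) and its call was lost after median-of-ratios rescaling.

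Beside UBP12, 3 of 9 tested gene models rose and 4 fell, and beside UBP13, 2 of 7 rose and 2 fell. With 24.6% of all genes called higher and 32.4% lower, counts this small do not by themselves set these neighbours apart. HST, among those near UBP13, had 42.9 and 41.8 FPKM in ubp12ubp13 against 19.9 and 18.6 FPKM in cry2-1 (1.10 ± 0.06 (SE), limma adjusted p = 2.21e-06). Calls were lost for AT5G06550 without cry2-1 replicate 2 or ubp12ubp13 replicate 2, and for AT5G06590 without cry2-1 replicate 1. EXT10 lost its call without any library except those of WT, and AT3G11890 lost it without cry2-1 replicate 2 or either ubp12ubp13 library. The adjusted p of these calls reached 0.145 at most when a library was left out.

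Across the transcriptome the genotypes differed at more than 1 in 2 genes. limma called 11371 of 19956 genes (57.0%), with 4904 higher (24.6%) and 6467 lower (32.4%) in ubp12ubp13. Both ubp12ubp13 libraries lay above both cry2-1 libraries for 35.1% of genes and below them for 44.0%. Changes of 1 or more on the log2 scale were called higher for 1019 genes (5.11%) and lower for 881 (4.41%). The median change of all genes was -0.05. Median-of-ratios rescaling moved it to 0.01 and gave 5710 higher and 5421 lower calls, which included all 4904 higher calls and 5421 of the lower ones.

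The WT libraries, which were not part of the difference, placed many called genes between the genotypes. Of the genes called higher in ubp12ubp13, the WT mean lay between the 2 genotype means for 2342 (47.8%), below both for 2203 (44.9%) and above both for 359 (7.32%). Among the genes called lower it lay between them for 3756 (58.1%), above both for 1378 (21.3%) and below both for 1333 (20.6%). These are placements of unscaled means with no test, and they were not repeated after rescaling. Median-of-ratios rescaling divides WT by 0.937 and 0.949, ubp12ubp13 by 0.990 and 0.997 and cry2-1 by 1.046 and 1.039. It would thus raise WT against both genotypes.

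The 12 largest rises included genes of carbon metabolism, flavonoid synthesis and iron uptake. FBA5 (AT4G26530), a fructose-bisphosphate aldolase gene, had 319 and 339 FPKM in ubp12ubp13, against 11.3 and 9.03 FPKM in cry2-1 (4.89 ± 0.09 (SE), limma adjusted p = 2.62e-08). TT4 (AT5G13930), the chalcone synthase gene at the entry of flavonoid synthesis, had 45.1 and 61.3 FPKM against 1.30 and 1.38 FPKM. Its difference was 4.52 ± 0.19 (SE, limma adjusted p = 6.11e-07), and the locus overlaps AT5G13940, so some fragments may belong there. QQS, a species-restricted gene whose activity affects leaf starch, had 136 and 125 FPKM against 7.23 and 5.68 FPKM (4.15 ± 0.28 (SE), limma adjusted p = 6.25e-06). Only genes with both ubp12ubp13 libraries above both cry2-1 libraries were ranked, so that separation is no further evidence. IRT1, the main root iron transporter, had 64.8 and 55.6 FPKM in ubp12ubp13 and was listed at 0 in both cry2-1 libraries. AT2G16367 had 56.5 and 41.9 FPKM and was listed at 0 in cry2-1 as well. The others among the 12 largest rises were AT1G65490, AT2G22942, AT1G66100 and AT2G15020, with differences of 4.29 to 5.72, and the CRY2 locus with its neighbours given above.

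The falls were led by PORA (AT5G54190), which encodes the protochlorophyllide oxidoreductase typical of dark-grown seedlings. PORA had 2.75 and 4.57 FPKM in ubp12ubp13, against 154 and 155 FPKM in cry2-1 (-5.09 ± 0.50 (SE), limma adjusted p = 5.26e-05). THA1 (AT1G08630), a threonine aldolase gene, had 4.59 and 6.29 FPKM against 194 and 207 FPKM (-4.98 ± 0.13 (SE), limma adjusted p = 8.66e-08). DIN2, a beta-glucosidase gene induced by darkness and sugar depletion, had 9.10 and 14.5 FPKM against 206 and 207 FPKM (-4.05 ± 0.17 (SE), limma adjusted p = 5.66e-07). As for the rises, groups that do not overlap were a condition for this ranking. MRD1 had 0.0447 and 0.145 FPKM in ubp12ubp13, 28.9 and 32.0 FPKM in CRY2oe and 31.8 and 29.8 FPKM in cry2-1, while UBP13oe and WT averaged 0.0631 and 0.0593 FPKM. Thus MRD1 was high in the cry2-1 and CRY2oe libraries and low in the other genotypes, and the locus overlaps AT1G53490. The oleosin gene OLEO3 had 1.42 and 0.600 FPKM against 28.4 and 31.5 FPKM. The beta-galactosidase gene BGAL7 had 0.233 and 0.398 FPKM against 17.38 and 17.0 FPKM. AT4G25580, AT1G19530, AT5G66260, AT3G18530 (which overlaps AT3G18535), GLYI7 and CYP71A20 made up the rest of the 12, with differences of -4.50 to -3.47.

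The stretches before the annotated starts of 5 of the genes that moved most or define their list are printed because blue-light signalling acts through promoter elements. Each runs 5′ to 3′ on the gene's strand over the 250 bases before the RefSeq start on TAIR10.1, and the starts in the files can differ from it. Capitals mark matches on either strand to the G-box (CACGTG), the evening element (AAAATATCT), the I-box (GATAAG) and the DRE core (CCGAC). The windows are chr5:4488226-4488475 on the plus strand for TT4, chr5:1563036-1563285 on the plus strand for CHIL, chr4:13390504-13390753 on the plus strand for FBA5, chr5:21992815-21993064 on the minus strand for PORA and chr3:5263751-5264000 on the plus strand for IAA19. TT4, CHIL and FBA5 rose, and PORA and IAA19 fell. All 5 printed windows hold a marked match. Among the largest rises and falls some windows hold none, such as those of IRT1, QQS, THA1 and DIN2.
TT4: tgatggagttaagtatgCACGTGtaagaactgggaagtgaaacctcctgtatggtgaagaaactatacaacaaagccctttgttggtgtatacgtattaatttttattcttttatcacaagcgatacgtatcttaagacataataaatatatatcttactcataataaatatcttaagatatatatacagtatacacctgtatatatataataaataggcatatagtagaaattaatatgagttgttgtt
CHIL: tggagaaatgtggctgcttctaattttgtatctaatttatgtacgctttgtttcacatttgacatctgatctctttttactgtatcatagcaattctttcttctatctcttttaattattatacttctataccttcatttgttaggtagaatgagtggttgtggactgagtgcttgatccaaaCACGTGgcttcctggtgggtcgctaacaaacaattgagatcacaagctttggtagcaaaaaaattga
FBA5: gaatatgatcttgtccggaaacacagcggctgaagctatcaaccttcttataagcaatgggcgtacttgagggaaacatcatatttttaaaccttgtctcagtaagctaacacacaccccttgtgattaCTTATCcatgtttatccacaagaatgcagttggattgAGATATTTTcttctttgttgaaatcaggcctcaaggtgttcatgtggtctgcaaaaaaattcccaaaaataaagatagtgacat
PORA: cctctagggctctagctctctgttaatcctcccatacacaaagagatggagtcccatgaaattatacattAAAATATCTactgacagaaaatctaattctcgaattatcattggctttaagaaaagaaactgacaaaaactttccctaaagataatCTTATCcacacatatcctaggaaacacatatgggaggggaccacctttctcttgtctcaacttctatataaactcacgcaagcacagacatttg
IAA19: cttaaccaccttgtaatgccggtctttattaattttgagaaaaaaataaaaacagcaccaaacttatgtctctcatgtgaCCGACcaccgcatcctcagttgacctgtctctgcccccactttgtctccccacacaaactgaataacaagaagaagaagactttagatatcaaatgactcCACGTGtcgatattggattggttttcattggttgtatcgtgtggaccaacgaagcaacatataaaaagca
The G-box begins at base -233 of TT4, -67 of CHIL and -70 of IAA19. Thus a G-box stood before genes that rose and before a gene that fell. The evening element and the I-box stood before FBA5, which rose, and before PORA, which fell. Over the 19559 windows of tested nuclear genes, 7.46% held a G-box, which is also an E-box (CANNTG, in 56.4%). The G-box share was 10.4% among genes called higher by 1 or more on the log2 scale and 6.57% among those called lower by as much. Among all genes called higher and lower the G-box shares were 8.22% and 7.45%, close to that of all windows. Among genes changed by 1 or more, the evening element shares were 4.07% and 2.58%, against 2.46% of all windows, and those of the I-box 15.1% and 18.3%, against 12.6%. Among all called genes they were 2.88% and 2.43% for the evening element and 12.7% and 14.1% for the I-box. The DRE core stood in 10.7% and 11.6% of the windows of genes changed by 1 or more and in 11.7% and 13.2% of those of all called genes, against 13.0%. A match is a string of letters in a window and not a site shown to be used.

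**Figure D2:**
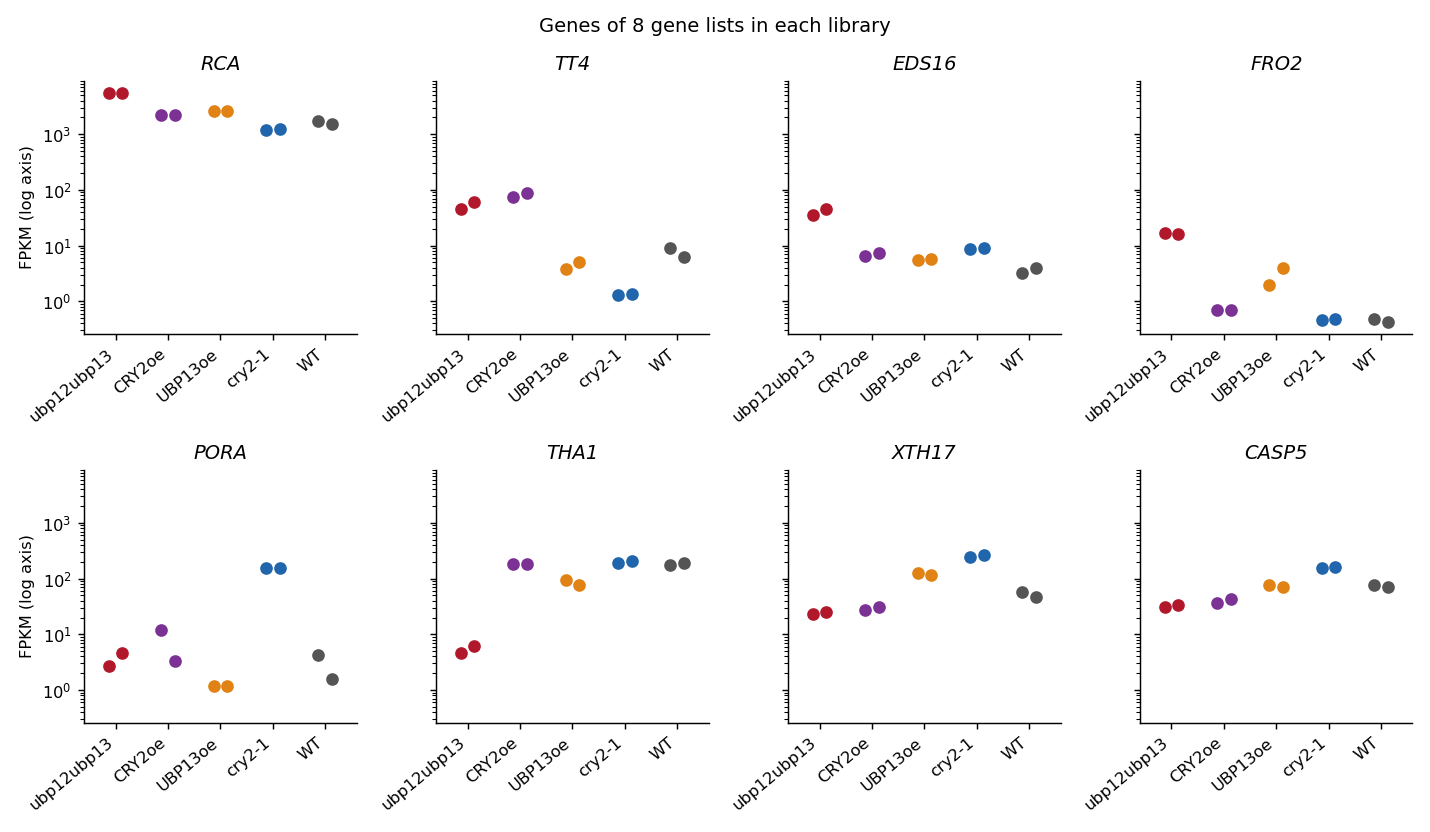
FPKM (log axis) of 8 genes in each library, with 2 points per genotype. RCA, TT4, EDS16 and FRO2 were higher in ubp12ubp13 than in cry2-1, and PORA, THA1, XTH17 and CASP5 were lower. CRY2oe lay with ubp12ubp13 for TT4, PORA, XTH17 and CASP5 and with cry2-1 for THA1, EDS16 and FRO2.

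Genes are further described in lists by function, each with its count of calls, which is to be read against 24.6% of all genes called higher and 32.4% called lower. A few members outside the rule for named genes are given as examples, chosen after their values were seen. Nearly the whole nuclear photosynthesis list rose: 50 of 52 tested members were called higher and 0 lower, with a median change of 0.85. RCA, which encodes Rubisco activase, had 5452 and 5597 FPKM in ubp12ubp13, against 1200 and 1233 FPKM in cry2-1 (2.18 ± 0.07 (SE), limma adjusted p = 2.46e-07). FBA1, a plastid aldolase of the Calvin cycle, had 662 and 725 FPKM against 102 and 107.5 FPKM, a difference of 2.71 ± 0.06. SBPASE and GAPB, other Calvin cycle genes, and FNR1, which encodes ferredoxin-NADP reductase, differed by 1.70, 1.70 and 1.42, and FNR1 overlaps AT5G66180. Among light-harvesting genes, LHCB4.1 had 2065 and 1882 FPKM against 1343 and 1397 FPKM, a difference of 0.52, while LHCB4.3 differed by 1.94. GPRI1 and GLK2, the transcription factors that promote chloroplast development, differed by 1.10 and 1.04. The members that did not pass were the photosystem I subunit genes PSAD-2 (0.27 ± 0.11) and PSAE-2 (0.06 ± 0.07). All 8 leaf mesophyll markers, which are also photosynthesis genes, rose, and their summed level was 32317 and 30933 FPKM in ubp12ubp13, against 14489 and 15081 FPKM in cry2-1. The part of mesophyll amount in these rises was not tested.

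Plastid-encoded genes did not follow the nuclear ones. Of 77 tested of 133, 4 rose and 43 fell, with a median of -0.55. The libraries were made from poly(A) RNA, in which plastid transcripts are caught incompletely. Plastid transcripts held 16.2% and 15.5% of all FPKM in ubp12ubp13 and 16.9% and 17.59% in cry2-1, sums in which short loci weigh heavily. RPOC1, an RNA polymerase subunit gene, had 18.4 and 15.9 FPKM against 59.4 and 56.7 FPKM (-1.70 ± 0.18 (SE), limma adjusted p = 7.12e-05). PSBA, encoding the photosystem II D1 protein, was among the risers with 286 and 366 FPKM against 155 and 169 FPKM (0.99 ± 0.14). The count that fell was 27 without cry2-1 replicate 1, 26 without cry2-1 replicate 2 and 24 without ubp12ubp13 replicate 2, with 2 risers in each case.

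Tetrapyrrole synthesis, which makes chlorophyll and heme, rose at 23 of 32 tested members and fell at 3, with a median of 0.45. GUN5, the H subunit gene of magnesium chelatase, had 498 and 472 FPKM in ubp12ubp13, against 181 and 182 FPKM in cry2-1 (1.41 ± 0.05 (SE), limma adjusted p = 3.73e-07). HEMA1, which encodes the first committed enzyme, had 246 and 260 FPKM against 123 and 120 FPKM (1.05 ± 0.05). The plastid ferrochelatase gene FC2 differed by 1.28 ± 0.04. The protochlorophyllide oxidoreductase genes split by member. PORC had 95.9 and 94.9 FPKM in ubp12ubp13, against 37.7 and 36.6 FPKM in cry2-1, and rose by 1.34 ± 0.04. PORB had 243 and 247 FPKM against 492 and 538 FPKM, a fall of -1.07 ± 0.08, and PORA fell as given above. The third member that fell was TED4, the heme oxygenase gene HY1 (-0.63 ± 0.04).

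Flavonoid and phenylpropanoid genes rose at 15 of 21 tested members and fell at 1, with a median of 0.75. CHIL, a chalcone isomerase-like gene, had 40.1 and 44.8 FPKM in ubp12ubp13, against 5.90 and 6.38 FPKM in cry2-1 (2.60 ± 0.09 (SE), limma adjusted p = 2.34e-07). FLS1, the flavonol synthase gene, had 11.97 and 13.9 FPKM against 0.788 and 1.022 FPKM, and the flavonoid glucosyltransferase gene UGT78D2 differed by 1.66 ± 0.08. PAL2, which encodes phenylalanine ammonia-lyase, had 62.7 and 63.7 FPKM against 19.8 and 18.4 FPKM (1.68 ± 0.07). The flavonol regulator gene MYB12 had 2.72 and 4.21 FPKM against 0.772 and 1.14 FPKM. PAL4 was the member that fell (-0.46 ± 0.08). The anthocyanin genes DFR and LDOX were too low to be tested in these seedlings.

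**Figure D3:**
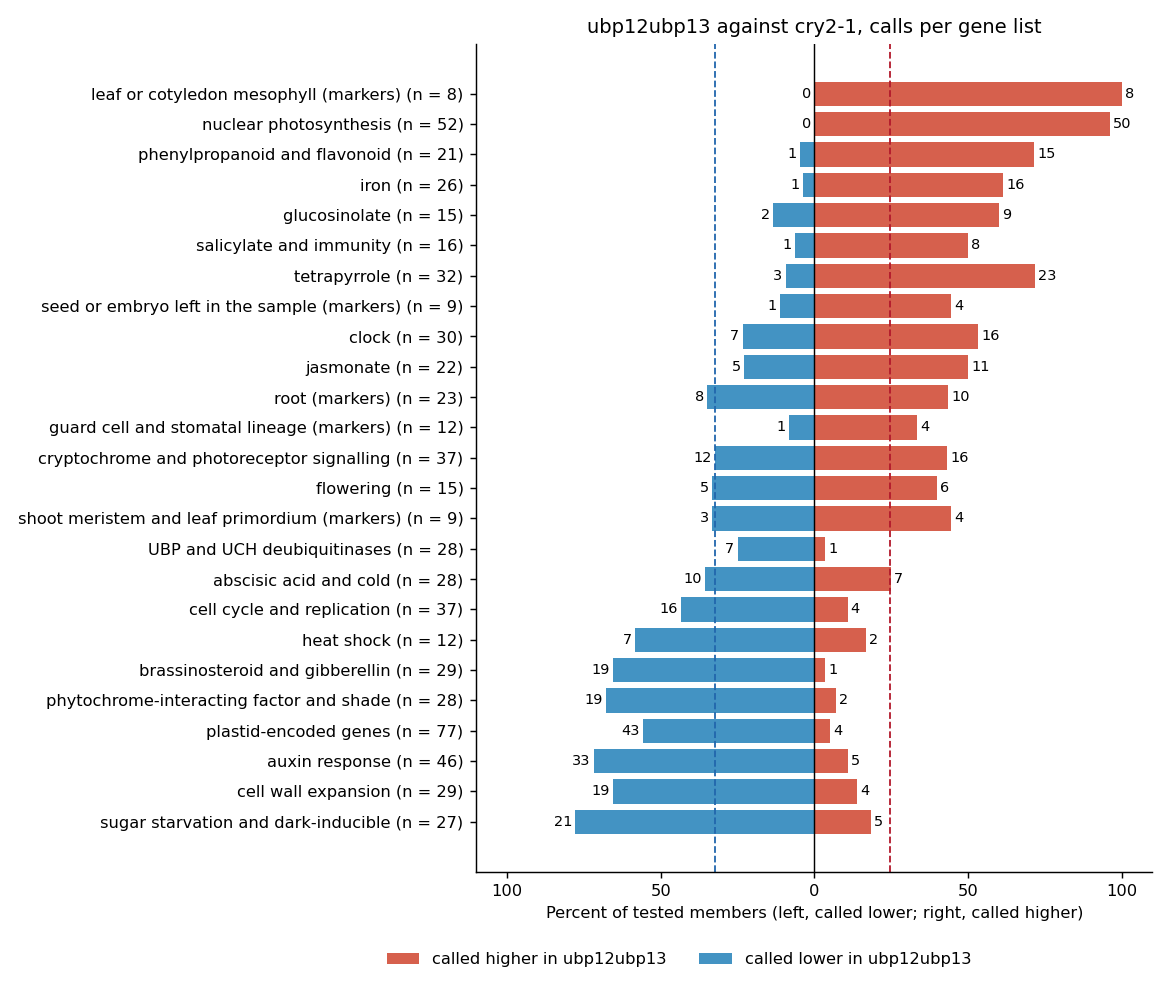
Percent of the tested members of each gene list called lower (left) and higher (right) in ubp12ubp13 against cry2-1, with the number called beside each bar and the number tested in the label. Lists run from the highest to the lowest median, and the dashed lines mark the percent of all genes called lower (32.4) and higher (24.6). Mesophyll marker, photosynthesis, flavonoid and tetrapyrrole lists reach furthest right, and sugar starvation, auxin and shade lists furthest left.

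Lists of genes linked to elongation growth were mostly called lower in ubp12ubp13. They hold genes that restrain growth or hormone response as well as genes that promote it, so the counts give no direction of growth. Of 28 phytochrome-interacting factor and shade genes 19 fell and 2 rose (median -0.45), of 46 auxin response genes 33 fell and 5 rose (-0.57), of 29 cell wall expansion genes 19 fell and 4 rose (-0.58), and of 29 brassinosteroid and gibberellin genes 19 fell and 1 rose (-0.39). PIF4, a phytochrome-interacting factor gene, had 22.8 and 21.5 FPKM in ubp12ubp13, against 48.8 and 48.3 FPKM in cry2-1 (-1.10 ± 0.06 (SE), limma adjusted p = 1.31e-06). IAA19, an auxin-induced repressor gene used as a readout of auxin response, had 25.7 and 20.0 FPKM against 93.0 and 99.5 FPKM (-2.04 ± 0.11 (SE), limma adjusted p = 2.12e-06). IAA6, of the same family, had 2.79 and 2.24 FPKM against 21.1 and 23.5 FPKM (-2.73 ± 0.09). In each of these genes all cry2-1 values were above all ubp12ubp13 values. SAUR19, a small auxin-induced gene of cell expansion, had 12.6 and 13.8 FPKM against 43.4 and 48.2 FPKM. The risers of the auxin list included IAA28, MP, ARF8 and GH3.3, of which MP and ARF8 encode auxin response factors. These 4 differed by 0.36 to 0.72, and the call of GH3.3 was lost when any of the ubp12ubp13 or cry2-1 libraries was left out.

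XTH17, which encodes a xyloglucan-modifying wall enzyme, showed the largest fall of the cell wall list. It had 22.9 and 25.2 FPKM in ubp12ubp13, against 243 and 262 FPKM in cry2-1 (-3.34 ± 0.11 (SE), limma adjusted p = 1.75e-07). XTH30 and XTH4 of the same family fell by -1.95 ± 0.05 and -1.52 ± 0.07. Not every wall gene fell. XTH9 had 196 and 196 FPKM in ubp12ubp13, against 68.8 and 76.4 FPKM in cry2-1, and the expansin gene EXPA1 had 135 and 133 FPKM against 73.3 and 72.8 FPKM. In the hormone list BIN2, a kinase that restrains brassinosteroid signalling, differed by -0.63 ± 0.05 and overlaps AT4G18720. GA2OX6, which encodes a gibberellin-inactivating enzyme, and RGL1, a DELLA repressor of gibberellin response, also fell (-1.07 and -0.88). All 3 act against hormone response. The member that rose was GA2OX2 (0.40), whose call was lost without cry2-1 replicate 1 or ubp12ubp13 replicate 1.

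Photoreceptor signalling genes moved in both directions, with 16 of 37 tested members called higher, 12 called lower and a median of 0.07. PHYA, the far-red photoreceptor gene, had 116 and 102 FPKM in ubp12ubp13, against 319 and 322 FPKM in cry2-1 (-1.55 ± 0.07 (SE), limma adjusted p = 6.64e-07). HYH, a homologue of HY5, had 48.7 and 56.2 FPKM against 21.7 and 22.1 FPKM (1.22 ± 0.09), and HY5 itself 29.3 and 35.4 FPKM against 20.9 and 20.3 FPKM (0.62 ± 0.08). LRB1 and POB1, which encode ubiquitin ligase adaptors that act on CRY2 and phytochromes, fell by -0.59 ± 0.06 and -0.58 ± 0.06. CIB1, a CRY2-binding transcription factor gene, had 10.52 and 8.20 FPKM against 29.6 and 26.7 FPKM, and overlaps AT4G34540. COP1 had 18.4 and 20.2 FPKM against 17.2 and 17.2 FPKM and did not pass the test (0.16 ± 0.07, limma adjusted p = 0.0721).

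Clock genes were called higher at 16 of 30 tested members and lower at 7 (median 0.29). The morning-phased regulators stood higher, with CCA1 at 51.8 and 48.6 FPKM in ubp12ubp13, against 18.16 and 16.6 FPKM in cry2-1 (1.48 ± 0.06 (SE), limma adjusted p = 5.33e-07), and LHY at 48.3 and 47.3 FPKM against 18.8 and 19.5 FPKM. PCL1, the evening complex gene also called LUX, had 41.3 and 41.7 FPKM against 66.6 and 70.3 FPKM (-0.71 ± 0.05). TOC1, an evening gene, had 49.1 and 48.9 FPKM against 52.5 and 51.6 FPKM and did not pass the test (limma adjusted p = 0.143). Light was continuous, and the labels give no hour of harvest.

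Sugar starvation and dark-inducible genes fell furthest of all lists, with 21 of 27 tested members lower, 5 higher and a median of -1.17. Members of branched-chain amino acid breakdown and dark-induced genes were among those that fell. BCAT-2, a branched-chain aminotransferase gene, had 25.9 and 27.9 FPKM in ubp12ubp13, against 298 and 315 FPKM in cry2-1 (-3.46 ± 0.08 (SE), limma adjusted p = 7.18e-08). MCCA, encoding a subunit of methylcrotonyl-CoA carboxylase in leucine breakdown, had 50.1 and 53.2 FPKM against 252 and 259 FPKM (-2.29 ± 0.05). Both loci overlap another gene, AT1G10090 for BCAT-2 and AT1G03100 for MCCA, while MCCB, the other subunit gene, overlaps none and had 40.4 and 41.7 FPKM against 169 and 173 FPKM. ASN1, the dark-induced asparagine synthetase gene, had 190 and 197 FPKM against 690 and 721 FPKM (-1.86 ± 0.07). SEN1, a senescence and darkness marker, had 407 and 394 FPKM against 1283 and 1461 FPKM (-1.77 ± 0.08). The sugar transporter gene STP1 had 126 and 127 FPKM against 467 and 485 FPKM. The 5 members that rose were QQS, GBSS1, SEX1, SS1 and APL3, which belong to starch metabolism or affect it. GBSS1, the granule-bound starch synthase gene, had 25.8 and 25.4 FPKM against 4.995 and 4.45 FPKM (2.22 ± 0.11).

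Iron uptake and distribution genes rose at 16 of 26 tested members and fell at 1 (median 0.64). FRO2, the root ferric reductase gene, had 17.1 and 16.0 FPKM in ubp12ubp13, against 0.470 and 0.488 FPKM in cry2-1 (3.57 ± 0.20 (SE), limma adjusted p = 2.31e-06). NAS4, a nicotianamine synthase gene, had 8.09 and 7.35 FPKM against 1.86 and 1.39 FPKM, and the metal-nicotianamine transporter gene YSL1 had 17.2 and 16.9 FPKM against 4.68 and 5.09 FPKM. The iron-deficiency regulator genes bHLH38 and bHLH39 rose by 1.60 ± 0.16 and 1.36 ± 0.25. FRU, the gene of the regulator FIT that acts with them, had 27.9 and 26.4 FPKM against 21.4 and 19.8 FPKM and did not pass the test (0.39 ± 0.22, limma adjusted p = 0.162). FER1, which encodes the iron store protein ferritin, was the member that fell, with 147 and 184 FPKM against 488 and 564 FPKM, and it overlaps AT5G01595.

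**Figure D4:**
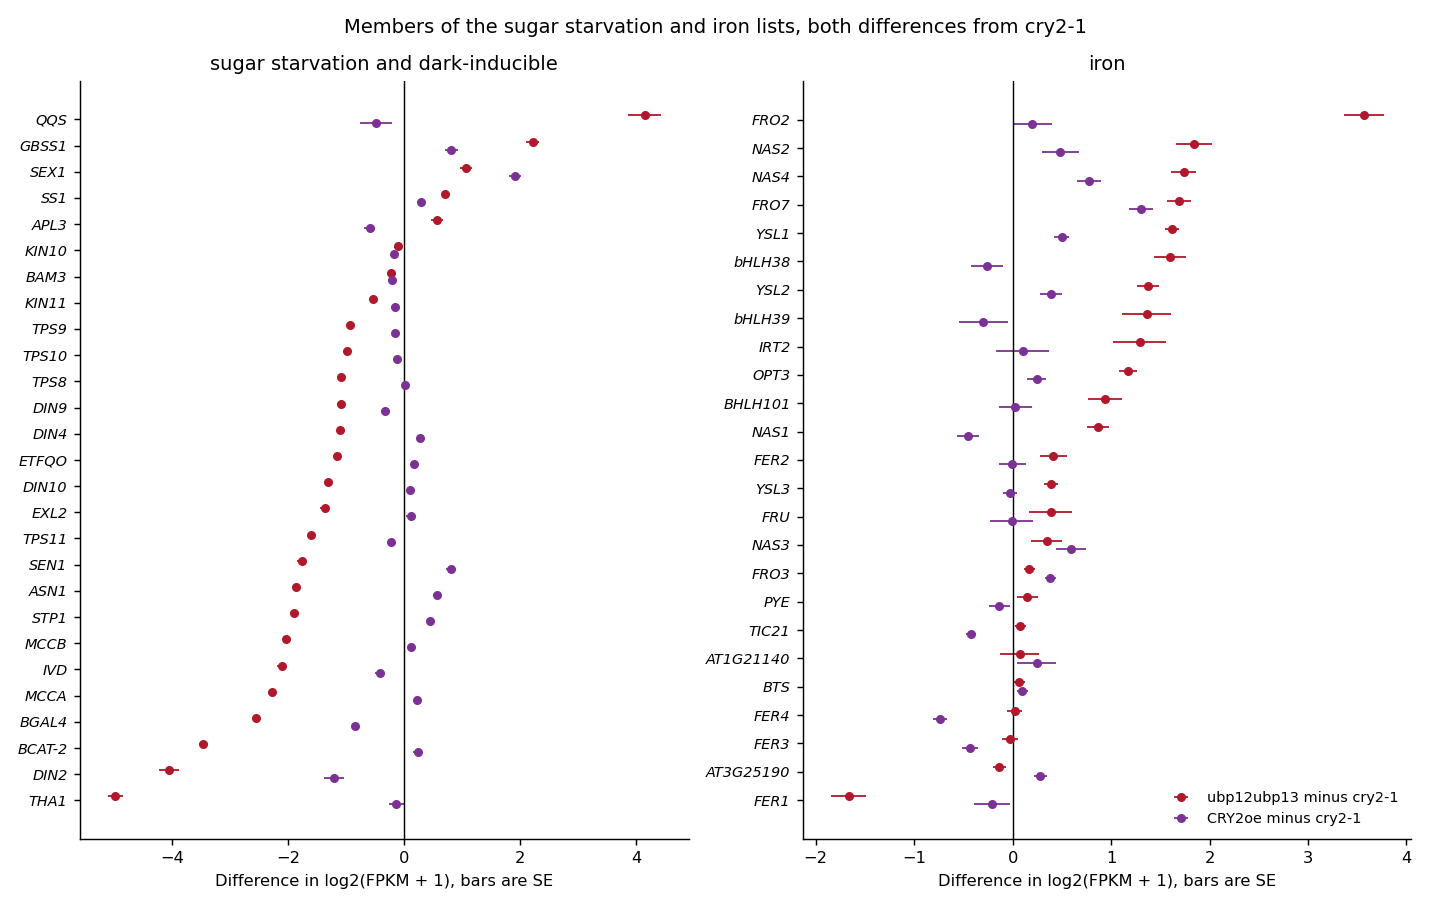
Difference in log2(FPKM + 1), with SE bars, of each tested member of the sugar starvation and iron lists for ubp12ubp13 minus cry2-1 and CRY2oe minus cry2-1, which share the cry2-1 libraries. IRT1 is left out because it was listed at 0 in cry2-1. Most sugar starvation members lie left of 0 for ubp12ubp13, such as BCAT-2 at -3.46, and on both sides of 0 for CRY2oe, where 9 were called higher and 8 lower.

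Defence-related lists leaned upward. Salicylate and immunity genes rose at 8 of 16 tested members and fell at 1 (median 0.47), glucosinolate genes rose at 9 of 15 and fell at 2 (0.52), and jasmonate genes rose at 11 of 22 and fell at 5 (0.27). EDS16, the isochorismate synthase gene of salicylate synthesis, had 35.9 and 45.9 FPKM in ubp12ubp13, against 8.64 and 8.88 FPKM in cry2-1 (2.09 ± 0.12 (SE), limma adjusted p = 2.89e-06). PBS3, which acts after it in the same pathway, had 5.91 and 5.89 FPKM against 0.167 and 0.260 FPKM. CBP60G, a transcription factor gene that activates EDS16, had 8.43 and 9.81 FPKM against 1.88 and 1.80 FPKM. ALD1, of pipecolic acid synthesis, was the member that fell, with 0.386 and 0.476 FPKM against 2.23 and 1.47 FPKM. MYB28, the regulator of aliphatic glucosinolate genes, had 13.3 and 11.4 FPKM against 2.57 and 2.68 FPKM (1.88 ± 0.10). TGG2, a myrosinase gene, had 54.4 and 33.9 FPKM against 5.04 and 5.85 FPKM. AOC2, an allene oxide cyclase gene of jasmonate synthesis, had 17.2 and 12.6 FPKM against 0.909 and 1.49 FPKM (2.85 ± 0.17).

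Markers of organs and cell types other than mesophyll were called in both directions. Their counts, with those of the stomatal, meristem and seed markers below, are to be read against 24.6% of all genes called higher and 32.4% lower. Of 23 root markers, 10 rose and 8 fell, and their summed level was 2151 and 2126 FPKM in ubp12ubp13, against 2902 and 2698 FPKM in cry2-1. The Casparian strip genes CASP1 to CASP5 and ESB1, with their regulator MYB36, all fell, and ESB1 overlaps AT2G28671. CASP5 had 30.4 and 33.3 FPKM in ubp12ubp13, against 155 and 159 FPKM in cry2-1 (-2.27 ± 0.08 (SE), limma adjusted p = 3.04e-07). The endodermis regulators SCR and SHR did not pass the test (0.15 ± 0.07 and 0.04 ± 0.05). Of the root hair genes, EXPA7, EXPA18, PRP3, LRX1 and SHV2 rose and their regulator RHD6 did not pass the test. EXPA18, a root hair expansin gene, had 9.38 and 10.3 FPKM in ubp12ubp13, against 1.63 and 1.64 FPKM in cry2-1, and EXPA7 had 11.7 and 12.2 FPKM against 2.64 and 3.35 FPKM. The division of the root list into these groups was made after the values were seen, and no root marker except IRT1 in cry2-1 was at 0. The iron list shares IRT1 with the root markers, and the part of root amount in the iron result was not tested.

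Of 12 guard cell and stomatal lineage markers, 4 rose (MUTE, FMA, EPF2 and SDD1, by 0.66 to 0.80) and KAT1 fell, with a summed level of 105 and 105 FPKM in ubp12ubp13 against 93.1 and 97.2 FPKM in cry2-1. The KAT1 call was lost without ubp12ubp13 replicate 2 or any cry2-1, CRY2oe or UBP13oe library. Of 9 tested shoot meristem markers, 4 rose and 3 fell, or 2 rose and 3 fell when either cry2-1 library was left out, and their summed level over all 12 markers was 95.7 and 94.4 FPKM against 101 and 101 FPKM. STM and KNAT1, which keep meristem cells undifferentiated, fell by -0.63 ± 0.10 and -0.58 ± 0.08. WUS had 0.0770 and 0.0617 FPKM in ubp12ubp13 and was listed at 0 in both cry2-1 libraries. These WUS values lie under the level of 3 fragments on 1 kb, so no difference is read from them. Seed markers summed to 51.0 and 70.9 FPKM in ubp12ubp13, against 56.5 and 58.3 FPKM in cry2-1. Of 9 tested, 4 rose and 1 fell. The seed count was 1 riser and 1 faller when either cry2-1 library was left out, 1 and 2 without ubp12ubp13 replicate 2, and 2 and 1 without ubp12ubp13 replicate 1. The seed storage genes SESA1 and SESA2 lay between 0 and 0.298 FPKM in these 4 libraries.

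CRY2oe was set beside ubp12ubp13 to see which differences from cry2-1 a line with high CRY2 RNA also had. The labels do not give the background in which CRY2oe was made, and c-NAD-MDH1 and AT1G04420 were at or near 0 in CRY2oe as in cry2-1. The difference in these neighbours is therefore also part of ubp12ubp13 against CRY2oe and of CRY2oe against WT, and its part in those results was not tested. Against cry2-1, limma called 2685 genes higher (13.5%) and 4785 lower (24.0%) in CRY2oe, or 3534 and 3337 after rescaling, with a median of -0.06. The 2 comparisons share the cry2-1 libraries, so their values are only given side by side, and the difference between ubp12ubp13 and CRY2oe was tested directly. That test called 5278 genes higher (26.4%) and 4699 lower (23.5%) in ubp12ubp13, with a median difference of 0.02.

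Some of the largest changes were nearly as large in CRY2oe. XTH17 had 27.0 and 31.2 FPKM in CRY2oe, a change of -3.08 from cry2-1, and the difference of ubp12ubp13 from CRY2oe was -0.27 ± 0.11 (SE, limma adjusted p = 0.067). IAA19 had 27.7 and 25.3 FPKM in CRY2oe (-0.21 ± 0.11 for ubp12ubp13 minus CRY2oe, limma adjusted p = 0.151). For PORA that difference was -0.72 ± 0.50 (limma adjusted p = 0.263), with 12.2 and 3.304 FPKM in CRY2oe. FBA5, too, was close, at 406 and 371 FPKM in CRY2oe. A p that misses the threshold does not show that the lines were equal. TT4 was lower in ubp12ubp13 than in CRY2oe, which had 76.1 and 86.2 FPKM (-0.61 ± 0.19, limma adjusted p = 0.0285). The cell wall list had medians of -0.58 in ubp12ubp13 and -0.56 in CRY2oe against cry2-1, and 9 of its 29 members were called higher and 8 lower in ubp12ubp13 than in CRY2oe. The auxin response median was smaller in size in CRY2oe (-0.28) than in ubp12ubp13 (-0.57). Of 46 members, 24 were called lower in ubp12ubp13 than in CRY2oe and 7 higher. The flavonoid median was also smaller in CRY2oe (0.22, against 0.75), with 12 of 21 members called higher in ubp12ubp13 than in CRY2oe and 6 lower.

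Other lists differed between the lines as well. Their counts are to be read against 26.4% of all genes called higher and 23.5% lower in ubp12ubp13 than in CRY2oe. For sugar starvation genes the median was -1.17 in ubp12ubp13 and 0.02 in CRY2oe, and 21 of 27 members were called lower in ubp12ubp13 than in CRY2oe and 4 higher. BCAT-2 had 366 and 354 FPKM in CRY2oe, more than in either ubp12ubp13 library, and ubp12ubp13 minus CRY2oe was -3.69 ± 0.08 (SE, limma adjusted p = 1.4e-07). SEN1 and ASN1 stood above cry2-1 in CRY2oe (0.81 and 0.56) and below it in ubp12ubp13. For tetrapyrrole genes the medians were 0.45 in ubp12ubp13 and -0.16 in CRY2oe, with 25 of 32 called higher in ubp12ubp13 than in CRY2oe and 2 lower. GUN5 had 165 and 162 FPKM in CRY2oe (1.56 ± 0.05 for ubp12ubp13 minus CRY2oe, limma adjusted p = 6.66e-07). Photosynthesis medians were 0.85 and 0.47. Of 52 members, 37 were higher in ubp12ubp13 than in CRY2oe, RCA by 1.31, and 1 was lower. Iron (0.64 and 0.06), salicylate (0.47 and -0.12) and glucosinolate (0.52 and -0.19) medians were also apart. In these lists 18 of 26, 11 of 16 and 11 of 15 members were higher in ubp12ubp13 than in CRY2oe, and 3, 1 and 2 were lower. FRO2 had 0.712 and 0.686 FPKM in CRY2oe, and IRT1 was listed at 0 there. Of 37 cell cycle genes, 16 were called lower in ubp12ubp13 and 25 in CRY2oe against cry2-1. Between the lines, 15 were called higher and 0 lower in ubp12ubp13 than in CRY2oe.

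**Figure D5:**
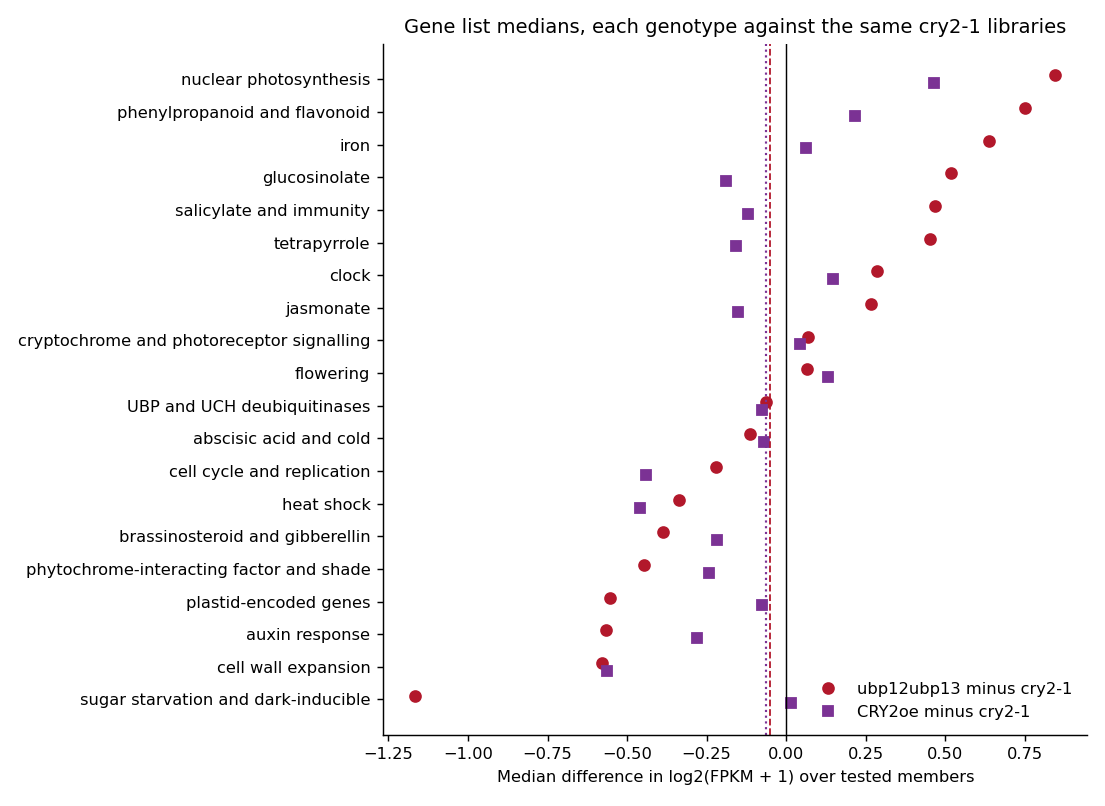
Median difference in log2(FPKM + 1) over the tested members of each list, for ubp12ubp13 minus cry2-1 (circles) and CRY2oe minus cry2-1 (squares), which share the cry2-1 libraries. The dashed and dotted lines mark the medians of all genes in the 2 comparisons, -0.05 and -0.06. The symbols lie close together for cell wall genes (-0.58 and -0.56) and furthest apart for sugar starvation genes (-1.17 and 0.02).

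Some genes were called in opposite directions against cry2-1. The 5 with the largest opposite calls, by the smaller of the 2 changes, were GRP9, AT2G15880, STP14, MLP423 and UGT84A3. GRP9, a glycine-rich protein gene, had 3.07 and 5.20 FPKM in ubp12ubp13, 82.4 and 92.3 FPKM in CRY2oe and 21.1 and 18.9 FPKM in cry2-1. Its differences from cry2-1 were -2.06 ± 0.18 in ubp12ubp13 and 2.07 ± 0.18 in CRY2oe. STP14, a sugar transporter gene, had 10.4 and 10.1 FPKM in ubp12ubp13, 52.3 and 49.2 FPKM in CRY2oe and 23.2 and 23.4 FPKM in cry2-1. For both genes cry2-1 lay between the other 2 lines. MLP423 had the reverse order, with 23.5 and 25.3 FPKM in ubp12ubp13, 4.45 and 4.11 FPKM in CRY2oe and 11.8 and 12.2 FPKM in cry2-1. The 5 with the largest calls in the same direction were CRY2, FBA5, TT4, PORA and AT1G66100.

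CRY2oe against WT shares no library with ubp12ubp13 against cry2-1, though both come from a single fit. There 3302 genes were called higher (16.5%) and 1922 lower (9.63%) in CRY2oe, or 2279 and 2857 after rescaling, with a median of 0.05. The total of 5224 fell to 2662 without CRY2oe replicate 1, to 2152 without CRY2oe replicate 2 and to 2194 in a fit of the CRY2oe and WT libraries alone. Of the genes called higher in ubp12ubp13 against cry2-1, 1500 were also called in CRY2oe against WT, 1212 of them higher and 288 lower. The 1212 are 24.7% of the genes called higher in ubp12ubp13 and 36.7% of those called higher in CRY2oe. Of the genes called lower in ubp12ubp13, 2066 were also called there, 1158 of them lower and 908 higher. Of all calls in CRY2oe against WT, 63.2% were higher, or 44.4% after rescaling. The shared calls were not counted again after rescaling. The 1158 are 17.9% and 60.3% of the genes called lower in the 2 comparisons. Nuclear photosynthesis genes were higher at 22 of 52 members in CRY2oe against WT and lower at 1. In the flavonoid list 10 of 21 were higher and 2 lower, and in the auxin response list 4 of 46 were higher and 10 lower. In the sugar starvation list 4 of 27 were higher and 2 lower. Plastid-encoded genes were higher at 69 of 77 tested members in CRY2oe against WT and lower at 0, with a median of 1.51, while their median was -0.55 in ubp12ubp13 against cry2-1. Their share of all FPKM was 18.0% and 17.9% in CRY2oe, against 8.57% and 11.2% in WT. It was 16.9% and 17.59% in cry2-1, 16.2% and 15.5% in ubp12ubp13 and 9.06% and 9.58% in UBP13oe. In CRY2oe against cry2-1, 6 of the 77 plastid-encoded genes were called higher and 9 lower, with a median of -0.08. The share was thus above that of WT in cry2-1 as well as in CRY2oe, and the cause was not tested. It is a sum of FPKM in which short loci weigh heavily, and not an amount of plastid RNA. PSBM (105 bp) alone averaged 41780 FPKM in ubp12ubp13 and 26100 FPKM in WT.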

How the data were processed

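Libraries were directional and made from poly(A) RNA, per the labels' protocols. The authors deposited FPKM per gene for 10 libraries, per the file headers, made with STAR and Cufflinks 2.1.1 on TAIR10, per the submitters' processing notes. The sources used here do not give the STAR version or whether strand entered the estimates, so overlapping loci are uncertain. Failed or skipped entries were set missing. Genes at 1 FPKM or more in 2 or more libraries entered a limma-trend fit of log2(FPKM + 1) with a mean for each of 5 genotypes, leaving 5 residual and 3.15 prior degrees of freedom. Two-sided p-values were Benjamini-Hochberg adjusted over all genes and called at 0.05. Because the values are FPKM, count models were left out. Depth was estimated from 4629 intronless genes, and 97.9% to 99.7% of low values were whole within 0.1 fragment.

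The members and gene lists were chosen with earlier results of these data known. Named genes were CRY2, CRY1, UBP12 and UBP13, the 12 largest called rises and falls among nuclear loci of 300 bp or more at 5 FPKM or more, up to 4 called members per list by adjusted p, 5 gene models flanking each mutated gene on either side, and the 5 largest same and opposite calls against cry2-1. The 12 largest rises and falls also needed a value in all 4 libraries and both ubp12ubp13 libraries beyond both cry2-1 libraries. Of 692 list names, 24 had no match. Promoter windows are RefSeq's on TAIR10.1, gene coordinates the files'. The fit was also run on simulated data with independent noise and few genes changed, so that run does not check the number of calls. Alternatives were 9 settings and leaving out each of 10 libraries. R 4.3.3, limma 3.58.1, Python 3.11.15, numpy 2.4.6, pandas 2.3.3 and matplotlib 3.10.9 were used.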

Additional observations from a re-analysis of the deposited data

How the results depend on the processing

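The calls for ubp12ubp13 minus cry2-1 numbered 9353 to 11670 under the other settings and 9316 to 11627 when a library was left out. Those for CRY2oe minus cry2-1 numbered 6451 to 7957 and 5058 to 7863, and those for ubp12ubp13 minus CRY2oe 8234 to 10089 and 7511 to 10294. For CRY2oe minus WT the count was 2194 with only the libraries compared, and 2152 to 5104 when a library was left out. The cause was not tested. Of 147 named genes tested, UBP12 reversed to -1.28 with failed estimates taken as 0, which replaces its missing replicate by the listed value. Replicate numbers were not taken to pair the samples: deviations of same-numbered libraries correlated at -0.000285 between ubp12ubp13 and cry2-1 and at -0.0884 to 0.146 over all pairs of genotypes, the highest between UBP13oe and cry2-1, and a replicate block gave 4852 higher and 6407 lower calls in that comparison and ended the call of no named gene. Over all alternatives, 2740 values of named genes kept their direction and side of the threshold, 27 lost the call and 1 gained it. With 2 libraries per genotype, leaving 1 out assumes that the lone library varies like the others, and the lower depth of ubp12ubp13 replicate 2 limits low genes most.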

Other observations

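Flowering regulators differed between ubp12ubp13 and cry2-1 without a common direction, with 6 of 15 tested members higher and 5 lower. Counts in this section are to be read against 24.6% of all genes called higher and 32.4% called lower. FLC, the repressor that delays flowering, had 31.5 and 35.1 FPKM in ubp12ubp13, 24.97 and 24.1 FPKM in cry2-1 and a WT mean of 59.8 FPKM. Its relative MAF5 had 8.49 and 9.59 FPKM in ubp12ubp13 against 2.01 and 2.46 FPKM in cry2-1, while the repressor gene SVP had 16.0 and 15.4 FPKM against 24.7 and 26.6 FPKM. FT, the mobile flowering signal, was at 0.122 FPKM or less in these 4 libraries.

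Abscisic acid and cold genes were called higher at 7 of 28 members and lower at 10, close to the shares of all genes. The dehydrin genes COR47 and ERD14 were lower, at 555 and 538 FPKM in ubp12ubp13 against 1325 and 1279 FPKM in cry2-1 for COR47. COR15B, a cold-regulated chloroplast protein gene, was higher, at 4.78 and 2.98 FPKM against 0.332 and 0.431 FPKM, and CRY2oe held 64.2 and 74.0 FPKM. Heat shock genes were called higher at 2 of 12 members and lower at 7, or lower at 4 without cry2-1 replicate 1 or without ubp12ubp13 replicate 1. The heat shock median was -0.34. HSP70, 1 of the 2 members called higher, had 28.8 and 35.0 FPKM in ubp12ubp13 against 15.4 and 15.2 FPKM in cry2-1. Of 37 cell cycle genes 4 were higher and 16 lower, among them the mitotic kinase gene CDKB2;1 at 17.2 and 18.4 FPKM against 31.7 and 27.8 FPKM, which overlaps AT1G76530. Of 28 tested deubiquitinase genes of the UBP and UCH families, UBP12 was the riser and 7 fell, UBP13 by the most. Both counts are smaller shares than those of all genes. The UBP12 call rests on 1 ubp12ubp13 library and was lost with the failed estimate taken as 0, as given above.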
